A study of Mus musculus with 10 samples.

Results

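The transcripts of 9 receptors of the tumour necrosis factor (TNF) receptor superfamily were followed in cultures of activated mouse splenocytes. Some of the cultures had been electroporated with cytokine mRNA, and the others served as controls. The 9 genes, named individually as the rule of selection, were Tnfrsf4, Tnfrsf9, Tnfrsf18, Cd27, Tnfrsf8, Tnfrsf25, Tnfrsf14, Tnfrsf1b and Tnfrsf1a, out of 55359 gene identifiers in the count table. All 9 were found and all 9 passed the filter on low counts, which left 15777 genes for testing.

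Receptors of this family are bound by trimeric ligands of the TNF family, mostly shown on the surface of antigen-presenting cells and of activated lymphocytes. Their cytoplasmic tails recruit TRAF adaptors and switch on the canonical and non-canonical NF-kB pathways and MAP kinases. Those of Tnfrsf1a and Tnfrsf25 also carry a death domain. On CD8 T cells, OX40 (Tnfrsf4), 4-1BB (Tnfrsf9) and GITR (Tnfrsf18) are known as receptors that appear or increase after antigen recognition and support survival and expansion, whereas CD27 is already present on naive cells and is lost during late effector differentiation.

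The cells were pmel-1 splenocytes, from mice whose transgenic T cell receptor recognises a gp100 melanoma peptide; they were activated for 48 h with hgp100 and kept for a further 48 h in hIL-2. The group called DRIL18 received mRNA for a decoy-resistant variant of IL-18, the group called IL12 received scIL-12 mRNA, and the mixture group received both. Mock cells were labelled as electroporated, but the labels do not say with which mRNA, and NoEp cells were labelled WT and not electroporated. In the electroporated groups RNA was taken 24 h after electroporation, and no such time is listed for NoEp. Each of the 5 groups had 2 libraries described as biological replicates. Nothing in the labels says that the replicates came from separate animals, so the p-values measure the spread between these libraries, which may be technical. The animals' age and sex are not given in the labels.

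Depth was even, at 31281944 to 35062545 counted reads per library, with 20326 to 21358 genes detected. Levels are given as CPM, read counts normalised to library size with trimmed mean of M values, for replicates 1 and 2 in that order. Differences are log2 fold changes with their standard error (SE) from edgeR's quasi-likelihood test over all libraries, with Benjamini-Hochberg adjustment over all tested genes, and a difference passed at an adjusted p below 0.05. The defining T cell markers Cd3e, Cd3g, Cd8a, Cd8b1 and Trac were abundant and summed to 1985 to 3029 CPM. Cd4 lay at 3.81 to 6.04 CPM. Markers of natural killer cells summed to 0.346 to 1.25 CPM. Myeloid markers summed to 3.46 to 21.5 CPM, or 0.384 to 2.17 CPM without Xcr1. B cell markers summed to 436 to 946 CPM, nearly all from Ighm, and to 14.6 to 25.6 CPM without it. The CD4 and regulatory T cell list summed to 205 to 349 CPM, mostly from Ctla4.

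Most of the receptors passed with each cytokine mRNA, and their median change was largest with the mixture. Tnfrsf1b, however, rose further with IL12 (1.64) than with the mixture (1.54), and Tnfrsf14 did not pass with the mixture. With DRIL18, 5 members rose and 2 fell against Mock, while 24.3% of all tested genes passed (12.2% higher, 12.1% lower). With IL12, 6 members rose and 3 fell, while 46.6% of all tested genes passed (23.0% higher, 23.6% lower). With the mixture, 6 rose and 2 fell, while 63.9% of all tested genes passed (32.0% higher, 31.9% lower), so that a count of members alone says little there. Libraries of the treated group and of Mock failed to overlap in 60.3% of tested genes with DRIL18, 71.3% with IL12 and 80.9% with the mixture, so lack of overlap is common in these data. The median member log2 fold change was 0.23 with DRIL18, 0.73 with IL12 and 1.54 with the mixture, while the median of all tested genes lay within 0.02 of 0. In the mixture 6 members rose by more than 2-fold and 1, Cd27, fell by more than 2-fold. All these comparisons share the same 2 Mock libraries. The column names of both mixture, both NoEp, 1 DRIL18 and 1 IL12 library, but of no Mock library, carry the mark bis. The labels do not explain it. All 8 mixture calls were kept with the mark as a covariate. Its effect could be estimated only within the DRIL18 and IL12 groups, where it goes with the replicate number. The covariate therefore cannot fully separate the mark from the differences of the mixture and of NoEp from Mock. In bulk RNA, fewer cells expressing a gene and less RNA per cell cannot be told apart.

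**Figure D1:**
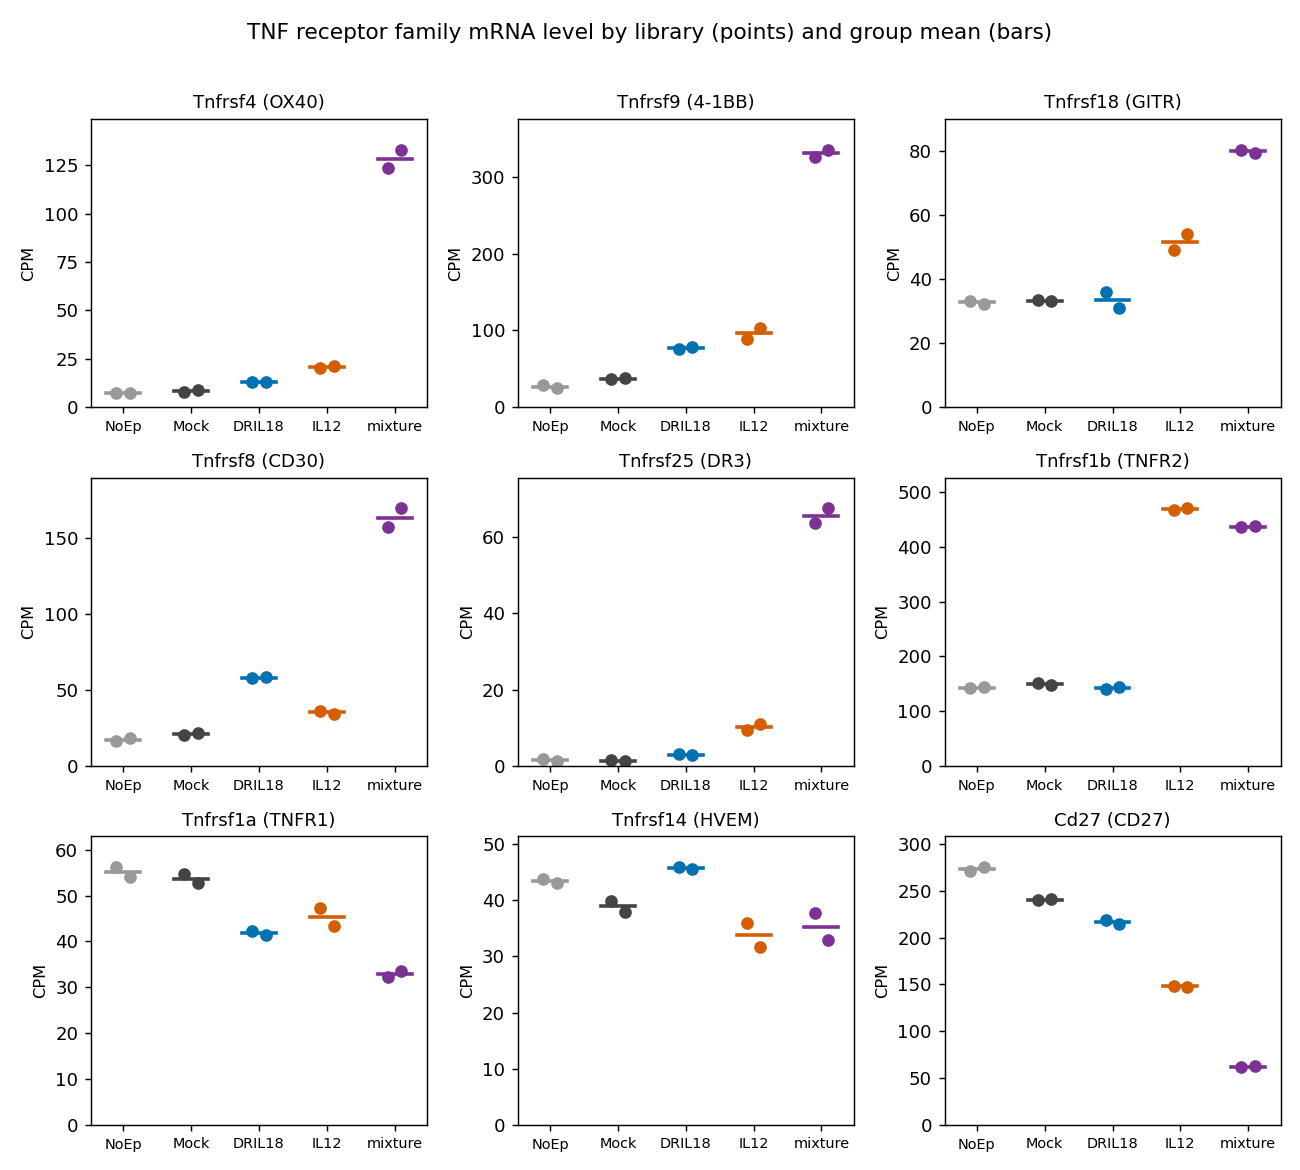
CPM of the 9 receptors in each of the 10 libraries, 1 panel per gene with its own linear axis from 0; points are libraries and horizontal bars the means of the 2 libraries of a group. Tnfrsf4, Tnfrsf9, Tnfrsf8 and Tnfrsf25 stand highest in the 2 mixture libraries, Tnfrsf1b is high in both IL12 and mixture libraries, and Cd27 is lowest in the mixture.

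Between Mock and NoEp, 3 of the 9 members passed, 2 higher and 1 lower in Mock, while 6.98% of all tested genes passed (3.34% higher, 3.64% lower). Tnfrsf9 was higher in Mock by 0.46 ± 0.07 (SE, adjusted p = 0.000131). Tnfrsf8 was higher by 0.28 ± 0.07 (SE, adjusted p = 0.0134) and Cd27 fell by 0.18 ± 0.04 (adjusted p = 0.00146). The Tnfrsf8 call was lost without Mock replicate 1 (adjusted p = 0.0598), Mock replicate 2 (0.152) or NoEp replicate 1 (0.15), and the Cd27 call without Mock replicate 1 (0.0538). The other 6 members differed by at most 0.18 in size on the log2 scale and did not pass.

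OX40, encoded by Tnfrsf4, binds OX40L and prolongs the survival of activated T cells. Tnfrsf4 stood at 7.53 and 7.29 CPM in the NoEp libraries, 7.67 and 8.69 in Mock, 13.1 and 13.0 with DRIL18, 20.1 and 21.4 with IL12 and 124 and 133 with the mixture. The 2 mixture libraries were far above every other library, and the DRIL18 and IL12 libraries also lay above those of Mock without overlap. Against Mock, Tnfrsf4 rose by 0.67 ± 0.09 (SE, adjusted p = 7.20e-07) with DRIL18 and by 1.35 ± 0.08 (SE, adjusted p = 1.49e-14) with IL12. With the mixture it rose by 3.97 ± 0.07 (SE, adjusted p = 9.96e-29), which is 15.7-fold. The mixture level exceeded that of IL12 by 2.63 ± 0.06 (SE, adjusted p = 3.77e-25) and that of DRIL18 by 3.30 ± 0.07 (SE, adjusted p = 3.33e-27).

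4-1BB, encoded by Tnfrsf9, is an activation-induced receptor whose signalling domain is also used in chimeric antigen receptors. Tnfrsf9 stood at 29.3 and 24.6 CPM in the NoEp libraries, 36.4 and 37.7 in Mock, 76.3 and 79.0 with DRIL18, 88.7 and 104 with IL12 and 326 and 335 with the mixture. Each step from NoEp to Mock, to either single mRNA and to the mixture was free of overlap between libraries. Against Mock, Tnfrsf9 rose by 1.07 ± 0.06 (SE, adjusted p = 3.25e-14) with DRIL18, by 1.38 ± 0.06 (SE, adjusted p = 5.76e-18) with IL12 and by 3.16 ± 0.06 (SE, adjusted p = 4.31e-28) with the mixture, which is 8.93-fold. IL12 exceeded DRIL18 by only 0.31 ± 0.06, but this passed (adjusted p = 6.39e-05).

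IL-18 receptors are known to signal through MyD88 to NF-kB, IL-12 receptors through STAT4, and T cell activation through AP-1. The 250 bases before each RefSeq transcription start (build GRCm38.p6, promoter table, 11 windows for the 9 members, all members matched by symbol) were therefore searched on both strands for 3 letter patterns. The NF-kB type, GGG and TTCC with any 3 bases between them, was found in 4.65% of 32851 such windows of all genes, and in windows of 5.31% of 27025 genes. The STAT type, TTCNNNGAA, was found in 7.02% of windows (8.13% of genes) and the AP-1 type, TGANTCA, in 6.75% (7.82% of genes). The NF-kB pattern occurred in windows of 2 members, Tnfrsf9 and Tnfrsf25, the STAT pattern in 5 (Tnfrsf9, Tnfrsf25, Tnfrsf18, Tnfrsf1b and Tnfrsf1a) and the AP-1 pattern in 2 (Tnfrsf9 and Tnfrsf8). The windows of Tnfrsf4, Cd27 and Tnfrsf14 held none of the 3. Annotated exons (GENCODE M21) covered part of the windows of Tnfrsf18, Tnfrsf4, Tnfrsf14 and Tnfrsf1a and of the second windows of Tnfrsf9 and Tnfrsf25. Such matches describe letters, not binding, and the patterns did not overlap each other. Tnfrsf9 was the only member with all 3 patterns, in the window of its second listed start. The stretches around its NF-kB match (chr4:150927946-150927975, plus strand), STAT match (chr4:150927853-150927881) and AP-1 match (chr4:150927974-150927998) are shown 5′ to 3′. Coordinates are those of the whole stretches, and the matching letters are in capitals. The stretch around the NF-kB match of Tnfrsf25 (chr4:152115706-152115735) is shown beside them, also as read on the plus strand. Its capitals are the reverse complement of the pattern, so that match lies on the minus strand.
Tnfrsf9 NF-kB type: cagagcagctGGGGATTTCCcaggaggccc
Tnfrsf9 STAT type: caacagctgaTTCCAAGAAacccttcaga
Tnfrsf9 AP-1 type: cctgctcagtTGAGTCAcaggtcct
Tnfrsf25 NF-kB type: tgagacccagGGAAAAGCCCctggctctgg

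GITR, encoded by Tnfrsf18, is a receptor high on regulatory T cells and raised on activated effector cells. Tnfrsf18 stood at 33.2 and 32.3 CPM in the NoEp libraries, 33.4 and 33.0 in Mock, 35.8 and 31.0 with DRIL18, 49.0 and 53.9 with IL12 and 80.4 and 79.3 with the mixture. Here the DRIL18 libraries straddled those of Mock, the IL12 libraries lay above them and the mixture libraries higher still. The difference of DRIL18 from Mock was 0.01 (95% confidence interval -0.12 to 0.14, adjusted p = 0.942). It turned to -0.10 without DRIL18 replicate 1. With IL12, Tnfrsf18 rose by 0.63 ± 0.06 (SE, adjusted p = 7.78e-10) and with the mixture by 1.27 ± 0.06 (SE, adjusted p = 6.97e-18), which is 2.41-fold. Of the 1524 exon bases of Tnfrsf18, 414 overlap Gm16008 on the opposite strand (GENCODE M21), and no source used here gives the strand setting of the counting, so reads of the 2 genes may be mixed. Gm16008 itself was counted at 0.297 to 2.04 CPM and was higher in the mixture by 1.98 ± 0.39.

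Foxp3, the defining factor of regulatory T cells, which carry much OX40 and GITR, lay at 1.10 and 0.952 CPM in Mock and at 0.0292 and 0.178 CPM in the mixture. It fell by 3.27 ± 0.56 on the log2 scale (adjusted p = 5.81e-06). With IL12, where Tnfrsf4 and Tnfrsf18 also rose, Foxp3 lay at 1.21 and 1.76 CPM and did not pass (0.53 ± 0.36 (SE, adjusted p = 0.244)). In the CD4 and regulatory T cell list as a whole, 1 of 6 genes rose and 3 fell with the mixture, and the summed level was 231 to 237 CPM in Mock, 340.2 to 349 CPM with IL12, where 1 rose and 2 fell, and 205 to 212 CPM in the mixture, none of the 6 at 0. Without Ctla4, the sum was 62.2 to 65.7 CPM in Mock, 49.1 to 50.3 CPM with IL12 and 52.5 to 59.4 CPM in the mixture. The part of CD4 and regulatory T cells in the rises of Tnfrsf4 and Tnfrsf18 was not tested.

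CD27, the receptor for CD70, showed the opposite course. Cd27 stood at 271 and 275 CPM in the NoEp libraries, 239.8 and 241 in Mock, 219 and 215 with DRIL18, 148 and 148 with IL12 and 61.3 and 63.0 with the mixture. The 2 mixture libraries were the lowest, followed by those of IL12, and no library of these groups overlapped Mock. Against Mock, Cd27 fell by 0.15 ± 0.04 on the log2 scale with DRIL18 (adjusted p = 0.00263), by 0.70 ± 0.04 with IL12 (adjusted p = 2.71e-16) and by 1.95 ± 0.04 with the mixture (adjusted p = 2.36e-27). The 5 T cell markers summed to 2815 to 2844 CPM in Mock, 2714 to 2719 CPM with DRIL18, 2275 to 2356 CPM with IL12 and 1985 to 1989.6 CPM with the mixture, none of them at 0. Of the 5, 3 passed as lower with DRIL18 (median log2 fold change -0.11), all 5 with IL12 (-0.28) and all 5 with the mixture (-0.58). Their part in the fall of Cd27 was not tested. A microRNA gene, Mir8113, lies on the same strand over 129 of the 2328 exon bases of Cd27.

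CD30, encoded by Tnfrsf8, is a receptor of activated lymphocytes that binds CD30L. Tnfrsf8 stood at 16.6 and 18.3 CPM in the NoEp libraries, 20.6 and 21.8 in Mock, 57.6 and 58.7 with DRIL18, 36.0 and 34.5 with IL12 and 157 and 169 with the mixture. Its order differed from that of OX40, 4-1BB and GITR, since the DRIL18 libraries lay above the IL12 libraries without overlap. Tnfrsf8 rose by 1.46 ± 0.06 (SE, adjusted p = 7.35e-18) with DRIL18 and by 0.73 ± 0.06 (SE, adjusted p = 5.10e-11) with IL12, and the direct comparison of IL12 with DRIL18 gave -0.72 ± 0.06 (SE, adjusted p = 6.06e-12). With the mixture it rose by 2.94 ± 0.06 (SE, adjusted p = 9.14e-28), or 7.70-fold. Tnfrsf8 was the only member that passed as lower with IL12 than with DRIL18 while higher than Mock with each.

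Tnfrsf8 lies next to Tnfrsf1b among the protein-coding genes of chromosome 4 in the RefSeq annotation. The promoter windows of this pair are shown because both genes rose with IL12, while the DRIL18 comparison passed in Tnfrsf8 and not in Tnfrsf1b. Any part of the pattern matches in these changes was not tested. The Tnfrsf8 window (chr4:145315165-145315414, minus strand, GRCm38.p6) holds an AP-1 type match and the Tnfrsf1b window (chr4:145246871-145247120, minus strand) a STAT type match, in capitals; neither window holds an NF-kB type match.
Tnfrsf8: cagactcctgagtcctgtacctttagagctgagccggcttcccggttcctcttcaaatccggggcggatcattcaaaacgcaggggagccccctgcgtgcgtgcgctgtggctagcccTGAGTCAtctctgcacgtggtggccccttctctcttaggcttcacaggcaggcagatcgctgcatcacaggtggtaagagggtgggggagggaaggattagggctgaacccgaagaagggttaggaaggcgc
Tnfrsf1b: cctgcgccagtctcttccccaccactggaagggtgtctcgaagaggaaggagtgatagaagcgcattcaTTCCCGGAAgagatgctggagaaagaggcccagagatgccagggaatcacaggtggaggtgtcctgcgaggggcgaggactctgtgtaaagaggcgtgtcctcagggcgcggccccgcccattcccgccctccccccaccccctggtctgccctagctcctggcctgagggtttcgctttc

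TNFR2, encoded by Tnfrsf1b, is the TNF receptor without a death domain that costimulates T cells. Tnfrsf1b stood at 142 and 144 CPM in the NoEp libraries, 151 and 148 in Mock, 139.8 and 144 with DRIL18, 467 and 469.7 with IL12 and 435 and 437 with the mixture. Libraries that received IL12, alone or in the mixture, were high, and the other 6 were low. The rise with IL12 was 1.64 ± 0.04 (SE, adjusted p = 4.18e-26), which is 3.13-fold, and with the mixture 1.54 ± 0.04 (SE, adjusted p = 7.33e-26). With DRIL18 the difference from Mock was -0.08 (95% confidence interval -0.15 to -0.00104, adjusted p = 0.142). The mixture was lower than IL12 by 0.10 ± 0.03 on the log2 scale (adjusted p = 0.0126), a call lost without mixture replicate 1 (adjusted p = 0.062).

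TNFR1, encoded by Tnfrsf1a, is the death-domain receptor for TNF. Tnfrsf1a stood at 56.2 and 54.1 CPM in the NoEp libraries, 54.6 and 52.7 in Mock, 42.3 and 41.4 with DRIL18, 47.3 and 43.4 with IL12 and 32.2 and 33.4 with the mixture. The mixture libraries were the lowest and the DRIL18 and IL12 libraries also lay below Mock. It fell by 0.36 ± 0.06 with DRIL18 (adjusted p = 1.05e-05), by 0.24 ± 0.06 with IL12 (adjusted p = 0.000586) and by 0.71 ± 0.06 with the mixture (adjusted p = 2.69e-12). The receptors for TNF thus moved in opposite directions wherever IL12 mRNA was present.

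DR3, encoded by Tnfrsf25, is the death-domain receptor for TL1A that costimulates T cells. Tnfrsf25 stood at 1.76 and 1.45 CPM in the NoEp libraries, 1.50 and 1.31 in Mock, 3.09 and 2.89 with DRIL18, 9.31 and 11.0 with IL12 and 63.6 and 67.4 with the mixture. It was the lowest member in Mock, on 53 and 44 counts, and reached 2179 and 2274 counts in the mixture libraries, which were far above all others. Tnfrsf25 rose by 1.09 ± 0.18 (SE, adjusted p = 2.91e-05) with DRIL18, by 2.85 ± 0.15 (SE, adjusted p = 1.17e-16) with IL12 and by 5.54 ± 0.12 (SE, adjusted p = 6.00e-27) with the mixture. The last was the largest fold among the 9 members, at 46.5-fold.

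HVEM, encoded by Tnfrsf14, costimulates T cells through LIGHT and is also the ligand of the inhibitory receptor BTLA and of CD160. Tnfrsf14 stood at 43.7 and 43.0 CPM in the NoEp libraries, 39.9 and 37.9 in Mock, 45.9 and 45.5 with DRIL18, 35.9 and 31.7 with IL12 and 37.7 and 32.9 with the mixture. It moved least of the 9: the mixture libraries spanned almost the same range as those of IL12, and 1 of them nearly reached Mock. Tnfrsf14 rose by 0.23 ± 0.06 (SE, adjusted p = 0.00821) with DRIL18 and fell by 0.21 ± 0.07 with IL12 (adjusted p = 0.0125). The DRIL18 call was lost without DRIL18 replicate 1 (0.22, adjusted p = 0.0612) or Mock replicate 2 (0.20, 0.113), and the IL12 call without IL12 replicate 2 (-0.12, 0.237) or Mock replicate 1 (-0.17, 0.129). The mixture did not pass at -0.14 ± 0.07 (SE, adjusted p = 0.0654), but passed without mixture replicate 1 (-0.24, adjusted p = 0.00996), IL12 replicate 1 (-0.14, 0.0454) or IL12 replicate 2 (-0.14, 0.0444). The direct comparison of IL12 with DRIL18 gave -0.44 ± 0.07 (SE, adjusted p = 2.85e-06).

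HVEM's partners moved much further and in opposite directions. Btla stood at 19.6 and 19.6 CPM in Mock and 100.2 and 99.0 with the mixture, a rise of 2.34 ± 0.06 (SE, adjusted p = 3.72e-25). It had risen by 0.29 ± 0.07 with DRIL18 and by 1.67 ± 0.06 with IL12 alone, and both passed. Cd160 stood at 56.2 and 54.3 CPM in Mock and 11.8 and 10.1 with the mixture, and fell by 2.34 ± 0.08 on the log2 scale (adjusted p = 2.87e-22). It also fell by 0.51 with DRIL18 and by 1.48 with IL12.

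**Figure D2:**
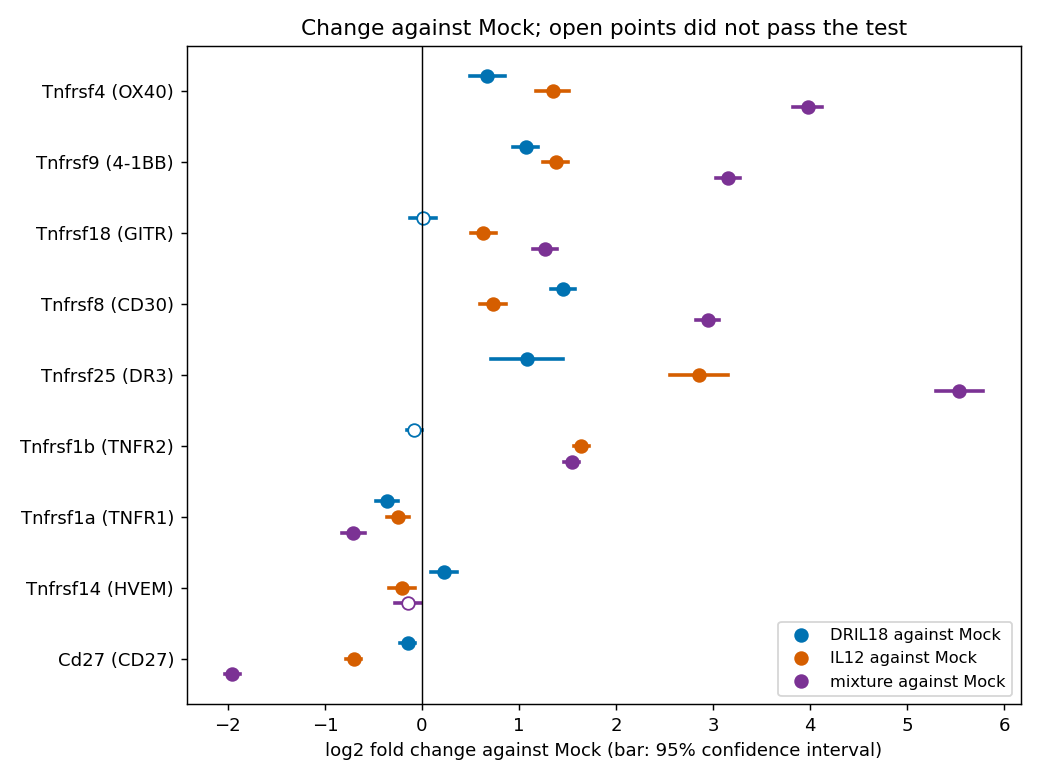
Log2 fold change against Mock of the 9 receptors with DRIL18, IL12 and the mixture; points are edgeR estimates, open where the test was not passed, and bars are 95% confidence intervals. Tnfrsf25 and Tnfrsf4 show the largest rises with the mixture (5.54 and 3.97) and Cd27 the largest fall (-1.95), and the interval of Tnfrsf18 with DRIL18 spans 0.

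Setting the single mRNAs side by side, 8 of the 9 members differed between IL12 and DRIL18, 5 higher and 3 lower with IL12, while 39.5% of all tested genes passed (18.9% higher, 20.6% lower). Those higher with IL12 were Tnfrsf25 (1.77 ± 0.13), Tnfrsf1b (1.72 ± 0.04), Tnfrsf4 (0.67 ± 0.08), Tnfrsf18 (0.62 ± 0.06) and Tnfrsf9. Those lower with IL12 were Tnfrsf8, Cd27 (-0.55 ± 0.04) and Tnfrsf14. Tnfrsf1a did not pass at 0.12 ± 0.06 (SE, adjusted p = 0.114).

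The mixture exceeded IL12 alone in 5 members and lay below it in 3, while 52.2% of all tested genes passed (25.8% higher, 26.3% lower). It exceeded DRIL18 alone in 6 members and lay below it in 3, while 57.3% passed (28.3% higher, 29.0% lower). Beyond Tnfrsf4, the mixture exceeded IL12 by 2.68 ± 0.09 in Tnfrsf25, 2.21 ± 0.05 in Tnfrsf8, 1.78 ± 0.05 in Tnfrsf9 and 0.63 ± 0.06 in Tnfrsf18. Cd27 was lower in the mixture than with IL12 by 1.25 ± 0.04, and Tnfrsf1a by 0.47 ± 0.06. Tnfrsf14 did not pass against IL12, at 0.07 ± 0.07 (SE, adjusted p = 0.449).

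Whether the mixture did more than its parts was tested as an interaction, the log2 effect of the mixture less the sum of the 2 single effects. It passed in 6 of the 9 members, 5 above and 1 below the sum, while 31.6% of all tested genes passed (14.6% above, 17.1% below). The excess was 1.95 ± 0.11 (SE, adjusted p = 3.94e-15) in Tnfrsf4, 1.60 ± 0.22 (SE, adjusted p = 5.56e-07) in Tnfrsf25, 0.76 ± 0.08 (SE, adjusted p = 1.01e-08) in Tnfrsf8, 0.71 ± 0.08 (SE, adjusted p = 3.94e-08) in Tnfrsf9 and 0.62 ± 0.09 (SE, adjusted p = 1.16e-06) in Tnfrsf18. In CPM, Tnfrsf4 gained 120.2 over Mock with the mixture, where the single gains summed to 17.4. For Tnfrsf9 the gain was 294 CPM against a sum of 99.8, and for Tnfrsf8 142 against 51.0.

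Cd27 lay below the sum by 1.10 ± 0.05 on the log2 scale (interaction -1.10, adjusted p = 1.17e-16), so its fall too exceeded the product of the single effects. The 3 members without a passing interaction were Tnfrsf1b (-0.03, 95% confidence interval -0.13 to 0.08), Tnfrsf1a (-0.11, -0.27 to 0.06) and Tnfrsf14 (-0.16, -0.36 to 0.03). Tnfrsf18 was the only member with a passing interaction to which DRIL18 alone added no detectable change.

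**Figure D3:**
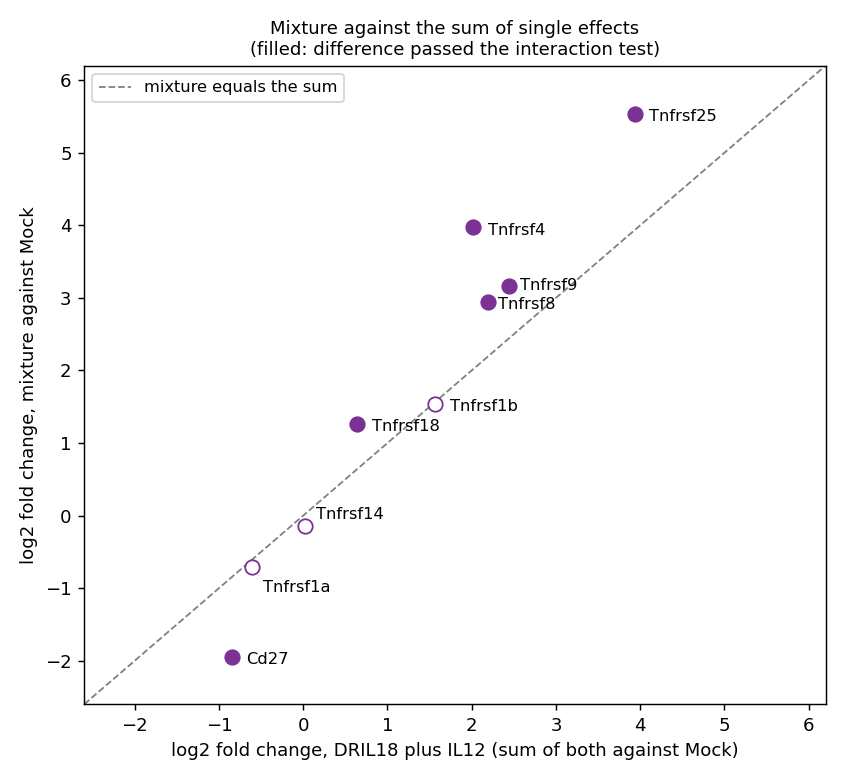
Log2 fold change of each receptor with the mixture (y axis) against the sum of its log2 fold changes with DRIL18 and IL12 alone (x axis), all against Mock; the dashed line marks equality and filled points passed the interaction test. Tnfrsf4 (1.95) and Tnfrsf25 (1.60) lie furthest above the line and Cd27 (-1.10) below it, while Tnfrsf1a, Tnfrsf1b and Tnfrsf14 lie near it as open points.

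To compare levels between receptors, CPM was divided by exon length (CPM per kilobase, GENCODE M21 lengths, mean ± SD, n = 2). In Mock, Cd27 was the most abundant at 103 ± 0.332, followed by Tnfrsf1b at 39.2 ± 0.536 and Tnfrsf14 at 27.1 ± 0.986. Tnfrsf18 (21.8 ± 0.162) and Tnfrsf1a (20.7 ± 0.514) were close neighbours in this order, whose libraries did not overlap in Mock but did in NoEp, and Tnfrsf9 came next (13.6 ± 0.321). Tnfrsf8 (6.13 ± 0.234) and Tnfrsf4 (5.99 ± 0.527) overlapped within their spread, and Tnfrsf25 was last at 0.617 ± 0.0593.

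In the mixture the order was led by Tnfrsf9 at 121 ± 2.39, Tnfrsf1b at 114 ± 0.377 and Tnfrsf4 at 94.0 ± 4.93 CPM per kilobase. Tnfrsf18 (52.4 ± 0.489) and Tnfrsf8 (47.2 ± 2.55) followed. Tnfrsf25 (28.8 ± 1.18), Cd27 (26.7 ± 0.507) and Tnfrsf14 (24.6 ± 2.33) came next, close together but without overlap of their libraries, and Tnfrsf1a was last at 12.7 ± 0.340. Cd27 therefore moved from the highest place to the seventh, and Tnfrsf4 from the eighth to the third. Cd27 still led with DRIL18 at 93.2 ± 1.30, whereas with IL12 Tnfrsf1b led at 123 ± 0.595 and Cd27 followed at 63.5 ± 0.158. Tnfrsf25 was last in both.

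**Figure D4:**
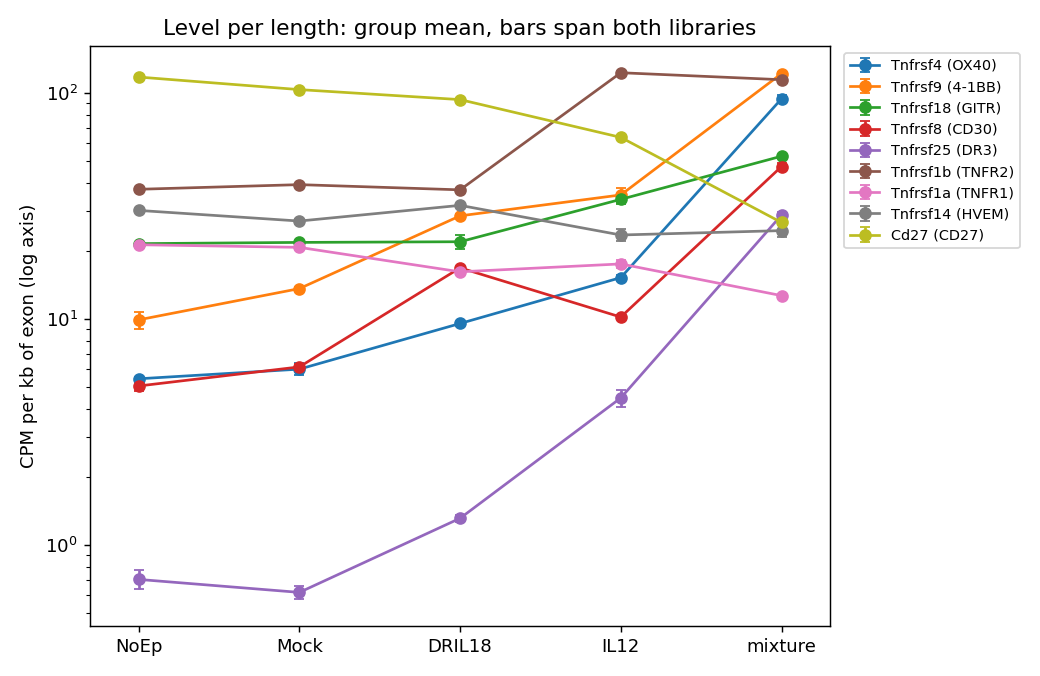
CPM per kilobase of exon of the 9 receptors in the 5 groups, on a log axis; points are means of 2 libraries, bars span both libraries, and lines join the same gene only to guide the eye. Cd27 falls from 103 in Mock to 26.7 in the mixture, while Tnfrsf9 rises from 13.6 to 121.

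The ligands of these receptors were measured in the same cells, 9 genes of which 8 could be tested. Cd70 and Tnfsf15 reached the filter on low counts only through the mixture libraries, so their higher values there are not counted. With the mixture the other 6 ligands rose, 2 of them by more than 2-fold, while 32.0% of all tested genes were higher. With DRIL18 1 ligand rose and 1 fell (24.3% of all tested genes passed), and with IL12 2 rose and 3 fell (46.6%). Tnfsf4, which encodes OX40L, stood at 3.62 and 3.93 CPM in Mock, 9.58 and 9.55 with DRIL18, 21.1 and 19.2 with IL12 and 52.1 and 45.7 with the mixture. None of these groups overlapped, and Tnfsf4 rose by 3.70 ± 0.10 (SE, adjusted p = 2.90e-24) with the mixture, or 13.0-fold. Unlike its receptor, its interaction did not pass, at -0.06 (95% confidence interval -0.36 to 0.23, adjusted p = 0.798).

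Tnfsf9, the 4-1BB ligand, rose from 2.21 and 2.20 CPM in Mock to 7.85 and 7.89 with the mixture (1.83 ± 0.17), and did not pass with DRIL18 (0.43 ± 0.19, adjusted p = 0.108) or IL12 (0.42 ± 0.20, adjusted p = 0.0795). Tnfsf14, which encodes LIGHT, stood at 4.56 and 4.52 CPM in Mock, 2.55 and 2.08 with IL12 and 8.26 and 8.12 with the mixture. It fell by 0.97 ± 0.18 with IL12 but rose by 0.85 ± 0.15 with the mixture, and its interaction was the largest of the ligands for which a value is given, at 2.33 ± 0.24 (SE, adjusted p = 2.76e-09). With DRIL18 alone Tnfsf14 was lower by 0.50 ± 0.17 (adjusted p = 0.0269), a call lost without either Mock or either DRIL18 library (adjusted p = 0.0882 to 0.109) and by DESeq2 (0.0554). Tnfsf8, which encodes CD30L, showed the same turn, from a fall of 0.54 ± 0.05 with IL12 to a rise of 0.43 ± 0.05 with the mixture (interaction 0.91 ± 0.07).

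Lta, which encodes lymphotoxin alpha, stood at 46.5 and 44.9 CPM in Mock, 35.4 and 22.5 with IL12 and 65.8 and 69.5 with the mixture. The log2 change was -0.66 ± 0.12 with IL12 and 0.57 ± 0.11 with the mixture, both passing, and -0.01 with DRIL18, which did not pass. Tnf rose by 0.59 ± 0.07 with the mixture and by 0.20 ± 0.07 with IL12 (adjusted p = 0.0187), the latter lost without IL12 replicate 1 (adjusted p = 0.135) or Mock replicate 2 (0.177); with DRIL18 it was -0.13 ± 0.07 and did not pass. Tnfsf15, which encodes TL1A, the DR3 ligand, was low, at 0.0566 and 0.297 CPM in Mock and 1.08 and 1.04 with the mixture. No test result is given for this difference, since Tnfsf15 reached the filter on low counts only through the mixture libraries.

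Cd70, the ligand of CD27, had 0 counts in both Mock libraries and 41 in the mixture libraries together. No fold is given, since Cd70 too reached the filter on low counts only through the mixture libraries. Tnfsf18, the GITR ligand, had 0 counts in all 10 libraries, which allows up to 0.00893 CPM over all of them; this limit covers counting error only.

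**Figure D5:**
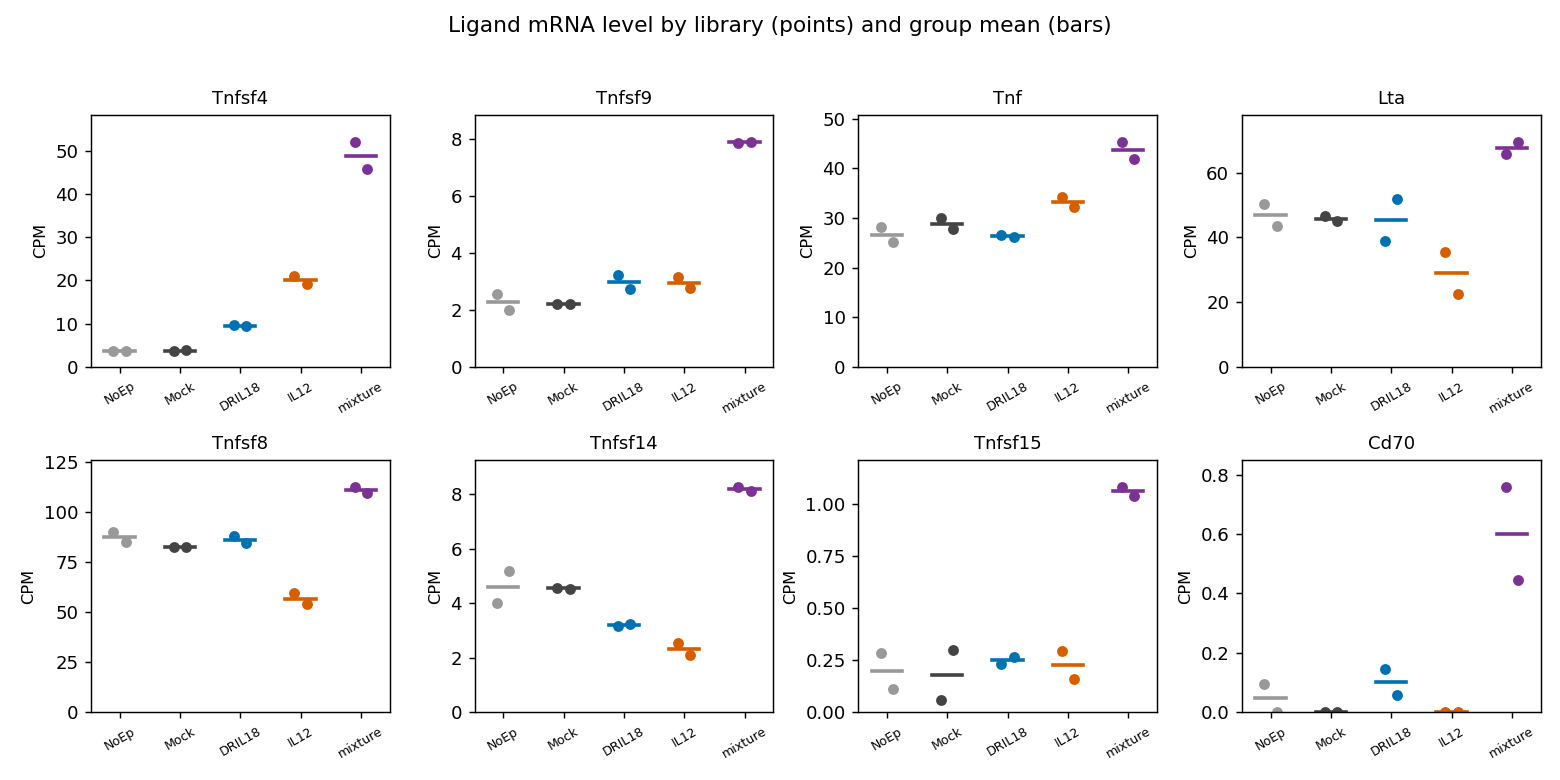
CPM of the 8 ligands with counts, 1 panel per gene with its own linear axis from 0; points are libraries and horizontal bars the means of the 2 libraries of a group. Tnfsf4 climbs from 3.62 and 3.93 in Mock to 52.1 and 45.7 with the mixture, while Tnfsf8, Lta and Tnfsf14 dip with IL12 and are highest with the mixture.

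Of 19 other receptors of the superfamily, 14 could be tested. Cd40 among them reached the filter on low counts only through the mixture libraries. Of the other 13, 5 rose and 7 fell with the mixture, while 32.0% of all tested genes were higher and 31.9% lower. Among these 13, the 3 largest passing changes in size were rises, those of Eda2r, Tnfrsf11b and Tnfrsf10b, of which Eda2r and Tnfrsf11b were at low levels. Eda2r went from 3 counts in Mock to 128 in the mixture, a ratio of 43.3 with a 95% counting interval of 14.5 to 213. Tnfrsf11b, which encodes osteoprotegerin, rose from 0.283 and 0.208 to 2.95 and 3.83 CPM (3.76 ± 0.35). Cd40 stood at 0.113 and 0.149 CPM in Mock and 0.847 and 1.30 CPM in the mixture, a difference that is not counted. Tnfrsf10b, the mouse TRAIL death receptor, rose from 11.6 and 11.5 to 48.1 and 53.5 CPM (2.14 ± 0.09). Cd40 is also a B cell gene, and 3 of the 6 B cell markers rose with the mixture and 2 fell. Their sum was 677 to 678 CPM in Mock and 539 to 555 CPM in the mixture with none at 0. Without Ighm, the sum was 18.5 to 19.9 CPM in Mock and 23.9 to 24.9 CPM in the mixture. The part of B cells in the level of Cd40 was not tested.

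Downstream of the receptors, 14 of 26 proximal signalling genes (TRAF adaptors, RIPK1 and FADD, the inhibitors of apoptosis, the linear ubiquitin complex and kinases) rose and 9 fell with the mixture (median 0.14), while 32.0% of all tested genes were higher and 31.9% lower. The largest changes were those of Birc3, an inhibitor of apoptosis bound by TRAF2 (1.78 ± 0.05), the deubiquitinase Otulin (1.43 ± 0.05), Traf4 (1.25 ± 0.07) and Traf5, which fell by 1.17 ± 0.09. With DRIL18 11 rose and 3 fell (12.2% of all tested genes higher, 12.1% lower), and with IL12 10 rose and 5 fell (23.0% higher, 23.6% lower).

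Of 16 NF-kB subunits, inhibitors and kinases, 12 rose and 3 fell with the mixture (median 0.70, beside the same 32.0% and 31.9% of all tested genes). With DRIL18 8 rose and 2 fell (median 0.25, beside 12.2% and 12.1%), and with IL12 6 rose and 4 fell (median 0.00, beside 23.0% and 23.6%). The largest rises were those of Nfkbiz (2.93 ± 0.06), Nfkbia, the classical inhibitor IkB-alpha (2.36 ± 0.05), Bcl3 (2.21 ± 0.06) and Nfkb2, the non-canonical subunit p100 (1.91 ± 0.04).

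The members differed among themselves in pattern over the 10 libraries. The pairs with the smallest root mean square difference of centred log2 CPM were Tnfrsf1a with Tnfrsf14 (0.267), Tnfrsf9 with Tnfrsf8 (0.370) and Tnfrsf4 with Tnfrsf9 (0.410). Tnfrsf1a and Tnfrsf14 had the smallest ratios of highest to lowest group mean among the members (1.68 and 1.35). Their patterns were only weakly correlated (Pearson r = 0.36). Among 9747 genes with a mean of at least 5 CPM, those most like Tnfrsf4 by root mean square difference were D1Ertd622e (0.137), Vash1 (0.275) and Ttc39c (0.295). Those most like Tnfrsf9 were Cdkn1a (0.231), Pdcd1lg2 (0.257) and Zeb2 (0.279). For Tnfrsf18 they were Ddit4 (0.103), Piwil2 (0.104) and Rpp38 (0.117), and for Cd27 AI504432 (0.0423), Tjp3 (0.0723) and Crebrf (0.0801). The libraries share groups and depth, so this likeness is a description of 5 group levels.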

How the data were processed

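Raw counts per gene were made by the authors with STAR 2.7.9 and featureCounts on mm39, per the submitters' processing notes; no source used here gives the annotation release or strand setting. Libraries were made with a TruSeq stranded mRNA kit, per the labels' protocols. The deposited log2 CPM table (13225 genes) was used only as a check: it equals voom values computed here from the counts, within 1e-10. Symbols came from GENCODE M21 (52083 identifiers matched, 3276 did not). Counts were tested with edgeR 4.0.16 (R 4.3.3; quasi-likelihood F test, TMM, filterByExpr, 5 group means over 10 libraries, 5 residual degrees of freedom, common coefficient of variation 3.39%), with Benjamini-Hochberg adjustment over 15777 genes. Alternatives used DESeq2 1.42.0 and limma 3.58.1, other scaling, filters and covariates, and left out each library. Members and lists were chosen with earlier results of these data known; every member and ligand is named, and of other lists up to 4 genes with the largest passing change with the mixture, while Foxp3, Gm16008 and Mir8113 were named after their values were seen. Replicates of a group differed beyond sampling noise (chi-square per degree of freedom 2.87 to 5.87). Protein sequences and an mm39 genome were not used here.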

Additional observations from a re-analysis of the deposited data

Results flagged for a closer look

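For 6 receptors the effect of the mixture differed from the sum of the single effects by the interaction test of edgeR, on the log2 scale and with 2 libraries per group. The difference was 1.95 for Tnfrsf4, 1.60 for Tnfrsf25, 0.76 for Tnfrsf8, 0.71 for Tnfrsf9 and 0.62 for Tnfrsf18, all above the sum. For Cd27 it was -1.10, below the sum. All 6 passed under each of the 17 alternatives run.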

How the results depend on the processing

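Of 72 member results (9 receptors in 8 comparisons), 62 kept their direction and their side of the threshold under all 17 alternatives, 7 changed call under at least 1, and 3 small, uncalled differences changed sign. The latter were Tnfrsf18 in Mock against NoEp (-0.00325 with the covariate described next, -0.00108 to 0.0441 over left-out libraries), Tnfrsf18 with DRIL18 (-0.10 to 0.11) and Tnfrsf14 in the mixture against IL12 (-0.0349 to 0.16). Column names of both NoEp, both mixture, the second DRIL18 and the second IL12 library carry the mark bis, which the labels do not explain. With it as a covariate, Mock against NoEp called 1 member and 172 genes, against 3 and 1102. Tnfrsf8 and Cd27 lost their calls there (adjusted p = 0.187 and 0.0541), as did Tnfrsf14 with IL12 (-0.16, 0.0731), and no other member's call changed with it. Leaving out 1 library gave 1 to 3 members and 242 to 1399 genes in Mock against NoEp, with 242 without Mock replicate 1, 349 without Mock replicate 2 and 350 without NoEp replicate 2. For DRIL18 against Mock it gave 2525 to 4125 genes against 3832, with 2525 without Mock replicate 2. Tnfrsf1a differed between IL12 and DRIL18 without IL12 replicate 2 (0.18, adjusted p = 0.0385). The cause of these shifts was not tested. Among ligands, uncalled values changed sign over left-out libraries for Lta with DRIL18 (-0.23 to 0.18, and 0.0209 with the covariate), Tnfsf15 with DRIL18 (-0.26 to 2.06) and with IL12 (-0.40 to 1.93), and the Tnfsf4 interaction (-0.16 to 0.0277). The count of ligands that passed with DRIL18 ranged from 1 to 3.

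Same-numbered replicates showed little shared deviation (10 correlations of deviations, -0.05 to 0.11). No pairing by number was seen, but a pairing weak beside the noise of the libraries could go unseen in this check. With the replicate number as a block, the counts of members that passed were 3 (Mock against NoEp), 7 (DRIL18), 9 (IL12), 9 (mixture), 8 (mixture against IL12), 9 (mixture against DRIL18), 8 (IL12 against DRIL18) and 6 (interaction). The block added Tnfrsf14 with the mixture (-0.14, adjusted p = 0.0449) and changed no other member's call. All genes that passed were then 1103, 3814, 7316, 10051, 8194, 9018, 6210 and 4980 in the same order. No alternative moved the median of all genes by more than 0.0161. Groups of 2 limit the precision of small differences such as those of Tnfrsf14.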

Other observations

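Of the 9 receptor genes, 7 lie on chromosome 4 and 2 on chromosome 6, and neighbouring genes differed in the size of their changes. Tnfrsf4 and Tnfrsf18 are adjacent protein-coding genes (RefSeq order, GRCm38.p6). Both rose with IL12 (1.35 ± 0.08 and 0.63 ± 0.06). With the mixture Tnfrsf4 rose by 15.7-fold and Tnfrsf18 by 2.41-fold, and with DRIL18 alone their log2 changes were 0.67 ± 0.09 and 0.01 ± 0.07. Tnfrsf8 and Tnfrsf1b are adjacent too, and both rose with IL12 and with the mixture. Tnfrsf8 changed more with DRIL18 (1.46 ± 0.06) than with IL12 (0.73 ± 0.06), while Tnfrsf1b changed by -0.08 ± 0.04 and 1.64 ± 0.04. These differences between genes were not tested.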
